A study of Homo sapiens with 31 samples.

Results

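The cullin genes are described here in H460, an established cell line from a human non-small cell lung carcinoma, across 8 treatment groups. The 8 members are CUL1, CUL2, CUL3, CUL4A, CUL4B, CUL5, CUL7 and CUL9, found by gene symbol among the 74834 rows of the deposited table of normalized read counts. All 8 passed the filter on low values, a mean of at least 10 over the 31 libraries, which 16259 rows passed. The family was chosen by the low normalized read counts of CUL3 after the combined treatment with B87 and DMKG, relative to untreated cells. CUL3 is therefore described with no test, and so are all members in that contrast.

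The study measured poly(A) RNA after 6 h of treatment, to follow gene expression in cells treated with metabolic agents and with compounds described as inhibitors of MDM2 action. Control cells were untreated. The label B87 stands for BAY87-2243, which inhibits complex I of the mitochondrial respiratory chain and was used at 1 µM. The label DMKG stands for dimethyl α-ketoglutarate, used at 5 mM, an ester of the Krebs cycle intermediate that enters cells. B87+DMKG received both. Nutlin-3 (30 µM) and Rita (50 µM) were given alone or on top of both agents, as B87+DMKG+Nutlin-3 and B87+DMKG+Rita. Nutlin-3 binds MDM2, a ubiquitin ligase, and Rita is a small molecule that the study groups with it. Every group had 4 libraries except Nutlin-3, which had 3, and all came from this cell line, with 2 wells per sample. The labels do not say whether the replicates came from separate experiments, and the spread behind the p-values may therefore be technical.

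Cullins are the scaffolds of cullin-RING ubiquitin ligases. The C-terminal part of a cullin holds a RING protein, RBX1 or, for CUL5, RNF7, which recruits a ubiquitin-charged E2 enzyme, and the N-terminal part holds adaptors that choose the substrate. CUL1 binds SKP1 with F-box proteins, CUL2 and CUL5 bind Elongin B and C with VHL-box or SOCS-box proteins, CUL3 binds BTB-domain proteins directly, and CUL4A and CUL4B bind DDB1 with DCAF proteins. CUL7 assembles with FBXW8, and CUL9, also called PARC, is a large cytoplasmic cullin. A ligase is switched on when NEDD8 is joined to its cullin, and is switched off when the COP9 signalosome removes it.

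The stretches just upstream of CUL3, CUL5 and CUL9 are shown because CUL3 and CUL5 had the lowest levels relative to Control and CUL9 the highest in B87+DMKG. Each is the 250 bases before an annotated transcript start, taken from RefSeq on GRCh38.p14 and written 5′ to 3′ on the gene's strand: chr2:224585364-224585613, minus strand, for CUL3; chr11:108008648-108008897, plus strand, for CUL5; and chr6:43181946-43182195, plus strand, for CUL9. Capitals mark GC boxes, GGGCGG or its reverse complement CCGCCC.
CUL3: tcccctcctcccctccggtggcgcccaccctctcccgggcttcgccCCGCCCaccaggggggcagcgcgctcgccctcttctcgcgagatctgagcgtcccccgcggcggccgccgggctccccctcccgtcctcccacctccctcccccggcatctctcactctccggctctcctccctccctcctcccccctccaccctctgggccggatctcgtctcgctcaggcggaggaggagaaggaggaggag
CUL5: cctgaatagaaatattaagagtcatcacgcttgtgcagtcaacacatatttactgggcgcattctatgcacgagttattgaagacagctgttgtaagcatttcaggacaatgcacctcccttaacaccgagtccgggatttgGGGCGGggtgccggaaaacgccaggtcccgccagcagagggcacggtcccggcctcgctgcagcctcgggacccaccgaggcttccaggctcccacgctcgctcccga
CUL9: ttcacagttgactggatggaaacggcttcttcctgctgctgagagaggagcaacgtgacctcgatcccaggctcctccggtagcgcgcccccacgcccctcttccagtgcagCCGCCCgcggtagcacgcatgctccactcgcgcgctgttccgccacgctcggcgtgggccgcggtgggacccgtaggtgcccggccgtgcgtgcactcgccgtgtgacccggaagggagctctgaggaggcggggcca
RefSeq gave 20 such windows for 7 of the 8 cullins, all but CUL7. A GC box was found in 9 of these 20 windows and in 42.6% of all 35116 windows of the same length. The cAMP response element TGACGTCA and the TATA box TATAAA, searched on both strands, were found in none of the 20, against 1.65% and 10.7% of all windows. GC content of the windows shown was 74.8% for CUL3, 57.2% for CUL5 and 69.2% for CUL9, beside a median of 58% over all windows. CUL3 has a second window, chr2:224569956-224570205, which is not shown, with 31.2% GC and no GC box. Each of the 3 windows shown holds 1 GC box. A match describes the sequence only, and the absence of one says only that these letters are not in the window.

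Libraries held between 33441414 and 82493612 reads in gene rows, with a median of 63089433, and log2 values correlated within groups at 0.964 to 0.993. DMKG libraries 1 and 2 lay apart from DMKG libraries 3 and 4. Cullin results were also refitted without each pair. Those fits are given where a call changed or an untested CUL3 value moved beyond the replicate spread. List genes were not refitted in this way. Keratins were abundant, as in an epithelial line (KRT8 at 97329 ± 6116 normalized read counts in Control), whereas EPCAM averaged 47.5 and CDH1 2.21. PTPRC, CD3E, PECAM1 and CDH5 stayed under 8 in every library. The summed level of the 6 epithelial markers was 246180 to 280522 in Control, 205915 to 314057 in B87+DMKG, and 346191 to 417485 over both triple treatments. The 4 leukocyte markers in the table, nearly all CD14, summed to 203 to 246 in Control and 58.2 to 94.9 in B87+DMKG. The 4 endothelial markers summed to 9.55 to 21.4 in Control and 32 to 66 in B87+DMKG, and the 6 fibroblast markers to 1314 to 1452 in Control and 1799 to 1918 in B87+DMKG+Rita. The part of these shifts in the cullin results was not tested.

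In Control cells the cullins differed widely in level. Per kilobase of exon, CUL1, the scaffold of the SCF ligases, was highest at 2250.0 ± 117 normalized read counts (mean ± SD, n = 4), followed by CUL4A at 1528 ± 81.6. CUL3 (773 ± 38.4), CUL4B (693 ± 73.5) and CUL2 (585 ± 66.4) lay in the middle of the order. CUL5 had 218 ± 35.8, CUL7 108 ± 7.53 and CUL9 40.9 ± 2.31. The length used was that of all annotated exons of a gene merged, 3.548 kb for CUL1 and 7.869 kb for CUL4A, and the order depends on this choice. Not divided by length, CUL4A was highest at 12026, beside 7983 for CUL1. In B87+DMKG the order per kilobase was altered: CUL3 at 79.8 ± 12.1 lay below both CUL7 at 188 ± 38.5 and CUL9 at 105 ± 17, and CUL5 at 29.4 ± 7.26 was the lowest. All other values below are normalized read counts per gene, not divided by length.

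**Figure D1:**
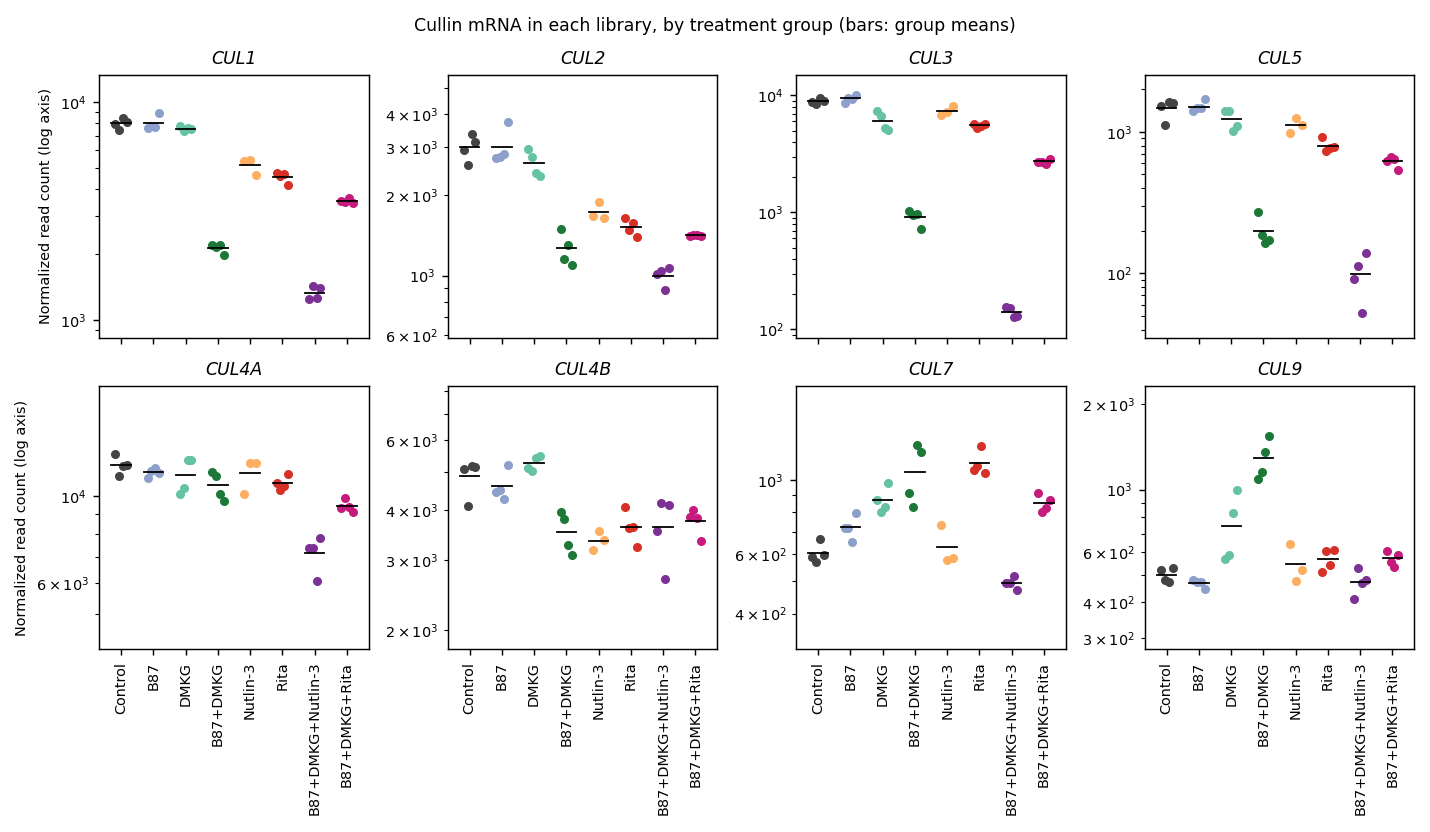
Normalized read counts (log axis) of the 8 cullins in each of the 31 libraries by treatment group, with points for libraries and bars for group means. CUL3 spans from about 9000 in Control and B87 to between 127 and 155 in B87+DMKG+Nutlin-3, whereas CUL9 is highest in B87+DMKG and CUL4A is lowest in B87+DMKG+Nutlin-3.

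CUL3, the scaffold for BTB-domain adaptors, had 8726, 8397, 9439 and 9000.5 normalized read counts in the 4 Control libraries and 1033, 943, 979 and 717 in B87+DMKG. The B87+DMKG libraries all lay below the Control libraries, as did those of 26.1% of all rows in this contrast, and the B87+DMKG mean was 10.3% of Control. With Nutlin-3 added to both agents, the 4 libraries held 155, 151, 127 and 129, a mean of 141 ± 14.5 (SD, n = 4). These values rest on 138 to 184 reads per library, and their mean was 1.58% of Control. With Rita added instead, they held 2718, 2702, 2614 and 2881, all above every B87+DMKG library and below every Control library. In RNA from whole cultures, fewer cells with a transcript and less of it per cell cannot be told apart.

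The single agents gave CUL3 values far closer to Control. B87 alone gave 8642, 9586, 9371 and 10056, overlapping Control. DMKG alone gave 7430.1, 6700.0, 5264 and 5016, so libraries 1 and 2 lay between Control and libraries 3 and 4. Nutlin-3 alone gave 6811, 7158 and 8087, just below Control, and Rita alone gave 5700.4, 5273, 5492 and 5721.

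The order of group means for CUL3 was B87+DMKG+Nutlin-3, B87+DMKG, B87+DMKG+Rita, Rita, DMKG, Nutlin-3, Control and B87, from lowest to highest. Libraries of Rita and DMKG overlapped, as did those of DMKG and Nutlin-3, and those of Control and B87. The other neighbours in this order did not. On the log2 scale, fitted with limma and given with its standard error, CUL3 differed from Control by 0.08 ± 0.10 in B87, -0.56 ± 0.10 in DMKG, -3.29 ± 0.10 in B87+DMKG and -0.28 ± 0.11 in Nutlin-3. The difference was -0.68 ± 0.10 in Rita, -5.97 ± 0.10 in B87+DMKG+Nutlin-3 and -1.70 ± 0.10 in B87+DMKG+Rita. The DMKG value was -0.79 without DMKG libraries 1 and 2 and -0.33 without libraries 3 and 4.

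Among all 16259 rows, CUL3 ranked 25 from the lowest log2 fold change in B87+DMKG and 1 in B87+DMKG+Nutlin-3, where no row had a lower value. In B87+DMKG+Rita it ranked 607. CUL5 ranked 42, 15 and 1368 in the same 3 contrasts, and CUL1 ranked 212, 170 and 1499. These contrasts share their Control libraries, so the ranks are given side by side only. CUL3 was chosen for its fall, so its low ranks are descriptions and add no support.

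CUL5, the scaffold that pairs with RNF7 and SOCS-box adaptors, had the same order of groups as CUL3 except that DMKG lay above Nutlin-3, with overlapping libraries. Control libraries held 1531, 1115, 1632 and 1605 normalized read counts and B87+DMKG libraries 271, 185, 165 and 173, so the groups did not overlap. B87+DMKG+Nutlin-3 libraries held 91.8, 113, 52.7 and 139, based on 57 to 162 reads each, and B87+DMKG+Rita libraries held 619.6, 669, 639.6 and 542. Relative to Control, CUL5 fell by 3.95 ± 0.19 on the log2 scale in B87+DMKG+Nutlin-3 (limma adjusted p = 1.86e-17) and by 1.24 ± 0.19 in B87+DMKG+Rita (adjusted p = 1.71e-06). Rita alone gave 913, 728, 773 and 785, a log2 change of -0.87 ± 0.19 (limma adjusted p = 3.13e-04), whereas the Nutlin-3 change of -0.39 ± 0.20 and the DMKG change of -0.25 ± 0.19 did not pass the test. In B87+DMKG, described without a test, CUL5 was 13.5% of Control.

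CUL1, the scaffold of the SCF ligases that carry cyclins and other phosphorylated proteins to destruction, had 7925, 7455, 8450.0 and 8103 in Control and 2201, 2155, 2209.7 and 1989.9 in B87+DMKG, or 26.8% of Control. B87+DMKG+Nutlin-3 libraries held 1241, 1428, 1254 and 1400.1, the lowest group, and B87+DMKG+Rita libraries 3523, 3475, 3636 and 3455. Nutlin-3 alone gave 5389, 5418 and 4641 and Rita alone 4723, 4585, 4670.4 and 4151, all below every Control library. CUL1 fell in all 4 groups that received Nutlin-3 or Rita, by log2 values of -0.63 ± 0.07 for Nutlin-3 (limma adjusted p = 3.74e-08), -0.82 ± 0.07 for Rita, -2.59 ± 0.07 for B87+DMKG+Nutlin-3 and -1.18 ± 0.07 for B87+DMKG+Rita. In DMKG alone, CUL1 differed from Control by -0.08 ± 0.07, which did not pass the test, with a 95% interval of -0.22 to 0.05.

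CUL2, the scaffold used by the VHL tumour suppressor, had 2939, 2574, 3378 and 3154 in Control, 1490.1, 1155, 1301 and 1099 in B87+DMKG and 1016, 1038, 880.4 and 1063 in B87+DMKG+Nutlin-3. B87+DMKG+Rita libraries were nearly level at 1403, 1422, 1412 and 1406. Nutlin-3 alone gave 1668, 1875 and 1633, a log2 change of -0.80 ± 0.11 (limma adjusted p = 1.32e-06), and Rita alone gave 1633, 1479, 1573 and 1394, a change of -0.98 ± 0.10 (adjusted p = 3.08e-09). CUL2 thus fell with Nutlin-3 or Rita alone by amounts that were larger, in the point estimates, than the CUL3 differences for the same groups. Under DMKG alone the change was -0.20 ± 0.10 (limma adjusted p = 0.123), but it passed the test with all libraries scaled to the same total (-0.31, adjusted p = 0.0279), without Control library 2 (-0.27, adjusted p = 0.0454) and without DMKG libraries 1 and 2 (-0.33, adjusted p = 0.0298).

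CUL4A and CUL4B are paralogous scaffolds of the DDB1 ligases that act in DNA repair and replication licensing. CUL4A, the cullin with the highest read count, held 12828, 11259, 11958 and 12062 in Control and 11534, 11295, 10174 and 9762 in B87+DMKG, with overlapping groups. B87+DMKG+Nutlin-3 libraries held 7366, 7372, 6078 and 7824, all below every Control library, and CUL4A fell by 0.75 ± 0.08 on the log2 scale (limma adjusted p = 1.14e-09). In B87+DMKG+Rita, CUL4A fell by 0.35 ± 0.08 (limma adjusted p = 3.15e-04). Rita alone gave -0.15 ± 0.08 (limma adjusted p = 0.105), which passed the test under quantile normalization (-0.28, adjusted p = 0.00419), with totals made equal across libraries (-0.33, adjusted p = 0.00114) and in a fit of only these 2 groups (adjusted p = 0.0375). PCID2 overlaps the start of the CUL4A row, and whether the counting used strand is not given in the sources used here. PCID2 itself fell in B87+DMKG+Nutlin-3 by 0.39 ± 0.06.

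For CUL4B, Control libraries held 5083, 4102, 5176 and 5139, and B87+DMKG libraries 3960.3, 3816, 3263 and 3093. Group means of the 5 groups with B87+DMKG, Nutlin-3 or Rita lay between 3358 and 3761, and every neighbouring pair of these 5 groups overlapped. CUL4B fell relative to Control with Nutlin-3 (-0.53 ± 0.12, limma adjusted p = 5.05e-04), Rita (-0.42 ± 0.11, adjusted p = 0.00155), B87+DMKG+Nutlin-3 (-0.44 ± 0.11) and B87+DMKG+Rita (-0.37 ± 0.11). The B87+DMKG+Nutlin-3 libraries ranged from 2684 to 4170 and overlapped Control, at Control library 2 (4102) only. DMKG libraries held 5125, 5031, 5431 and 5491, and their difference from Control was 0.12 ± 0.11 (limma adjusted p = 0.404).

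CUL9, the large cytoplasmic cullin, and CUL7, its relative that works with FBXW8, were the members with higher levels in B87+DMKG. CUL9 held 521, 479.5, 474 and 529 in Control, 569, 586, 829 and 999 in DMKG and 1091, 1155, 1362 and 1549 in B87+DMKG, so that every B87+DMKG library lay above every other library of the study. CUL9 rose by 0.53 ± 0.13 on the log2 scale in DMKG (limma adjusted p = 0.0019), but the change was 0.21 (adjusted p = 0.227) without DMKG libraries 3 and 4. With Nutlin-3 or Rita added to both agents, CUL9 was close to Control, at 411, 529.8, 467 and 481 and at 608, 556, 533 and 589. Rita alone gave 0.18 ± 0.13 (limma adjusted p = 0.278), or 0.32 (adjusted p = 0.0389) under quantile normalization. Against Control the 2 triple treatments differed by -0.09 ± 0.13 (limma adjusted p = 0.59) and 0.19 ± 0.13 (adjusted p = 0.229), although the latter passed under quantile normalization (0.43, adjusted p = 0.00592) and in a fit of only these groups (0.19, adjusted p = 0.0384).

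CUL7 held 591, 571, 668 and 598 in Control, 871, 803, 831 and 977 in DMKG and 915, 832, 1269.7 and 1215 in B87+DMKG. Rita alone gave 1069, 1103, 1258 and 1049, the group with the highest mean, a log2 rise of 0.88 ± 0.11 (limma adjusted p = 7.35e-08), and DMKG a rise of 0.52 ± 0.11 (adjusted p = 3.16e-04). Nutlin-3 alone gave 736, 577 and 587, a difference of 0.05 ± 0.12 that did not pass the test. In B87+DMKG+Rita the rise was 0.49 ± 0.11 (limma adjusted p = 3.10e-04), but 0.23 (adjusted p = 0.0977) with equal library totals. In B87+DMKG+Nutlin-3 the libraries held 492, 492, 519 and 470.4, all below Control (-0.30 ± 0.11, limma adjusted p = 0.0215). That call was lost under quantile normalization (-0.03, adjusted p = 0.836), without Control library 3 (-0.25, adjusted p = 0.0759) and without B87+DMKG+Nutlin-3 library 4 (-0.27, adjusted p = 0.0533). KLC4 overlaps the CUL7 row, and reads of the 2 genes are told apart only if strand was used.

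**Figure D2:**
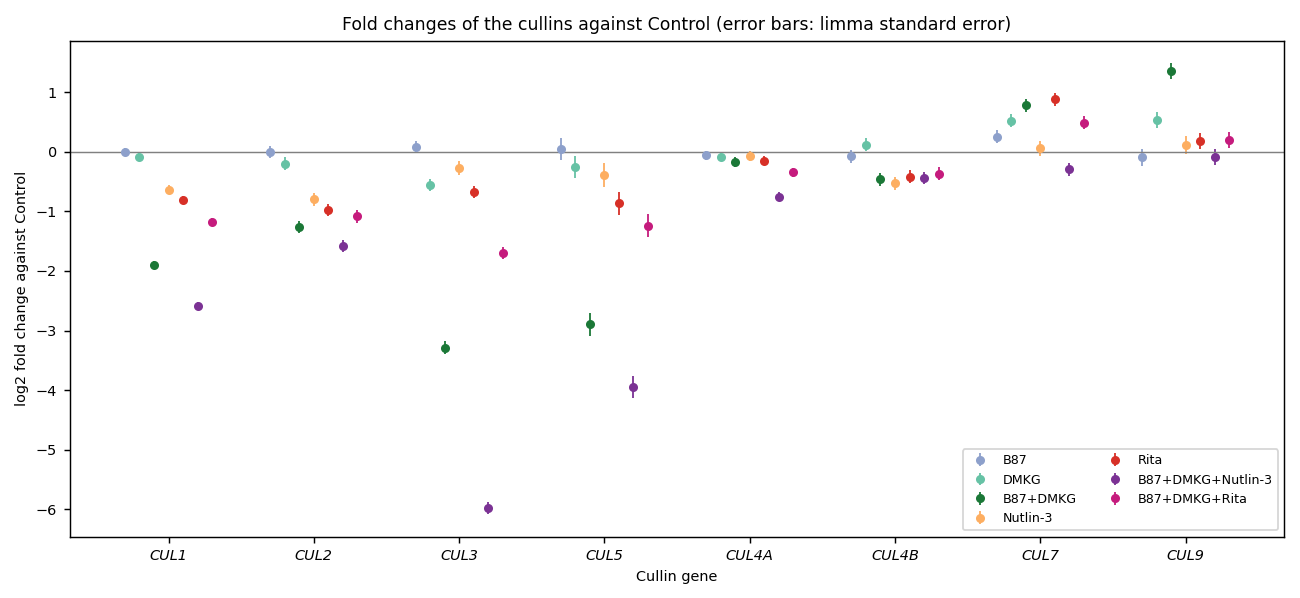
Log2 fold change against Control of each cullin in the 7 treatments, with points for the limma estimate and bars for its standard error. CUL3, CUL5 and CUL1 lie lowest in B87+DMKG+Nutlin-3 (-5.97, -3.95 and -2.59) and less low in B87+DMKG+Rita (-1.70, -1.24 and -1.18), whereas CUL7 and CUL9 lie above 0 in B87+DMKG.

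Counts of calls are given for the 7 members other than CUL3, beside the share of all 16259 rows called in either direction at an adjusted p under 0.05. B87 alone called 0 of 7, beside 0.0431% of all rows. With limma 904 rows had an unadjusted p under 0.05 there, and edgeR called 8 rows and DESeq2 29. Of all rows, 0.0308% were higher and 0.0123% lower with B87. DMKG called 2 of 7, both higher, beside 41.4% of all rows in either direction, 19.6% higher and 21.8% lower. Nutlin-3 called 3 of 7, all lower, beside 39.1% in either direction, 18.5% higher and 20.7% lower.

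Rita called 1 member higher and 4 lower, beside 52.1% of all rows, 25.8% higher and 26.3% lower. B87+DMKG+Nutlin-3 called 6 of 7 lower, beside 58% of all rows in either direction, 28.3% higher and 29.7% lower. B87+DMKG+Rita called 1 higher and 5 lower, beside 60.1% in either direction, 29.4% higher and 30.7% lower. In B87+DMKG against Control, where no member was tested, 61% of all rows were called. With shares of this size, a call by itself does not set a cullin apart from other genes. Groups that do not overlap were counted over all rows only for lower values in B87+DMKG against Control. Elsewhere, a lack of overlap describes the member alone. When the totals of all libraries were made equal, the median of all rows went as low as -0.25 on the log2 scale (in B87+DMKG+Rita), and no called member reversed direction.

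Adding B87 to DMKG was compared directly, as B87+DMKG against DMKG. That comparison reuses the B87+DMKG libraries on which the choice of the family rested. Its p-values and counts are therefore not independent of that choice. There 60.1% of all rows were called, 30.8% higher and 29.3% lower, and of the 7 tested cullins 2 were higher and 4 lower. CUL5 fell by 2.64 ± 0.19 on the log2 scale (limma adjusted p = 7.61e-13), CUL1 fell by 1.82 ± 0.07 (adjusted p = 1.45e-19) and CUL2 fell by 1.06 ± 0.10 (adjusted p = 4.60e-10). CUL4B fell by 0.58 ± 0.11 (limma adjusted p = 2.84e-05), whereas CUL4A changed by -0.09 ± 0.08, which did not pass the test but did without DMKG libraries 1 and 2 (-0.22, adjusted p = 0.0348). CUL9 rose by 0.82 ± 0.13 (limma adjusted p = 5.75e-06). CUL7 rose by 0.26 ± 0.11 (adjusted p = 0.0404), a call that was lost in a fit of only these groups (adjusted p = 0.173), with no filter on low values (0.0662), without DMKG libraries 1 and 2 together (0.202), and without any of DMKG libraries 1, 2 or 3 or B87+DMKG libraries 3 or 4 (adjusted p from 0.0621 to 0.204). CUL3, for description, differed by -2.73 ± 0.10.

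When Nutlin-3 or Rita was added to B87+DMKG, CUL1 and CUL5 fell with Nutlin-3 and rose with Rita. Both comparisons reuse the same B87+DMKG libraries, so their p-values and counts are not independent of the choice of the family either. With Nutlin-3 added, CUL5 changed by -1.05 ± 0.19 (limma adjusted p = 2.42e-05) and CUL1 by -0.69 ± 0.07 (adjusted p = 5.69e-10), and with Rita added they changed by 1.66 ± 0.19 (adjusted p = 7.23e-09) and 0.72 ± 0.07 (adjusted p = 8.77e-11). CUL3, for description, differed by -2.69 ± 0.10 with Nutlin-3 and 1.58 ± 0.10 with Rita. CUL9 fell with both, by 1.44 ± 0.13 and 1.16 ± 0.13, and CUL7 fell with Nutlin-3 by 1.08 ± 0.11. Nutlin-3 added called 0 members higher and 6 lower of 7, beside 58.9% of all rows, 26.5% higher and 32.3% lower. Rita added called 2 higher and 3 lower, beside 67.3% of all rows, 33.1% higher and 34.2% lower.

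Among these, CUL7 with Rita added changed by -0.29 ± 0.11 (limma adjusted p = 0.021) and CUL4A by -0.17 ± 0.08 (adjusted p = 0.0478). The CUL7 call was lost under quantile normalization (adjusted p = 0.0905), in a fit of only these groups (0.0816), and without B87+DMKG libraries 3 (0.125) or 4 (0.0959) or B87+DMKG+Rita library 2 (0.0589). The CUL4A call was lost with edgeR (adjusted p = 0.0594), with no filter (0.0828), and without B87+DMKG libraries 1 (0.148) or 2 (0.125) or B87+DMKG+Rita libraries 1 (0.0831), 3 (0.0788) or 4 (0.106). CUL2 changed by 0.17 ± 0.10 (limma adjusted p = 0.143), which passed without B87+DMKG library 1 (0.25, adjusted p = 0.0353).

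The 2 triple treatments were then compared with each other, a comparison added after the values were seen. CUL5 was higher with Rita than with Nutlin-3 by 2.71 ± 0.19 on the log2 scale (limma adjusted p = 2.16e-13), and CUL1 by 1.41 ± 0.07 (adjusted p = 1.51e-17). CUL2, CUL4A and CUL7 were also higher, by 0.50 ± 0.10, 0.41 ± 0.08 and 0.79 ± 0.11. CUL4B differed by 0.07 ± 0.11, with a 95% interval of -0.15 to 0.29, and CUL9 by 0.28 ± 0.13 (limma adjusted p = 0.089; 0.0207 in a fit of only these groups). In all, 5 of 7 members were called higher and 0 lower, beside 48.3% of all rows in either direction, 24.5% higher and 23.8% lower. CUL3 differed by 4.27 ± 0.10, described without a test. The doses and the targets of Nutlin-3 and Rita differ, so this compares these treatments as given.

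The other genes of the pathway were taken from lists of the NEDD8 cycle and of each cullin's adaptors. Counts are from limma with adjustment over all rows, the lists were chosen with earlier results of these data known, and they are descriptions. In B87+DMKG against Control, where 30.2% of all rows were called higher and 30.8% lower, 15 of 27 NEDD8-cycle genes were lower and 1 was higher, with a median log2 change of -0.35 beside 0.00 for all rows. NAE1, a subunit of the enzyme that activates NEDD8, went from 11955 ± 590.2 to 5128 ± 584 (-1.23 ± 0.10), and UBA3, its catalytic partner, rose by 0.27 ± 0.09. UBE2M, the main NEDD8-conjugating enzyme, changed by 0.11 ± 0.07, which did not pass the test.

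GLMN, which blocks the RING protein of neddylated ligases, fell by 1.52 ± 0.12 on the log2 scale, and SENP8, a NEDD8 protease, changed by -1.49 ± 0.23. CAND1, the exchange factor that swaps adaptors on unmodified cullins, changed by -0.40 ± 0.08. Of the COP9 signalosome, which removes NEDD8, the catalytic subunit gene COPS5 changed by -0.47 ± 0.07 and COPS4 by -0.78 ± 0.08, while COPS6 and GPS1 did not pass the test (0.04 ± 0.06 and -0.02 ± 0.12). RNF7, the RING partner of CUL5, changed by -0.59 ± 0.08. NAE1 was lower still in B87+DMKG+Nutlin-3 (-2.03 ± 0.10) than in B87+DMKG, by -0.80 ± 0.10 when those were compared, and with Rita in place of Nutlin-3 it was higher by 1.75 ± 0.10. Most of the list did not move with NAE1. With Nutlin-3 added to B87+DMKG, 15 of the 27 were higher and 3 lower (median 0.33), beside 26.5% and 32.3% of all rows. With Rita in place of Nutlin-3, 5 were higher and 8 lower (median -0.09), beside 24.5% and 23.8% of all rows. Of the 27 NEDD8-cycle genes, 10 were lower and 7 higher in B87+DMKG+Nutlin-3 against Control, beside 29.7% and 28.3% of all rows. The median of 0.08 became -0.08 with equal library totals and 0.11 under quantile normalization.

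Of 50 tested BTB adaptors of CUL3, 36 were lower and 7 higher in B87+DMKG (median -0.60), beside 30.8% and 30.2% of all rows. In B87+DMKG+Nutlin-3, 34 were lower and 5 higher (median -0.57), beside 29.7% and 28.3% of all rows. With Rita in place of Nutlin-3, 28 were lower and 9 higher (median -0.40), beside 30.7% and 29.4% of all rows. Under quantile normalization the latter became 21 lower and 13 higher, with a median of -0.18. With equal library totals they became 30 lower and 7 higher, with a median of -0.66 beside -0.25 for all rows. Among the largest changes in B87+DMKG were KBTBD8, a CUL3 adaptor known from neural crest formation, which went from 84.1 ± 2.9 to 12.6 ± 12.4 (-3.45 ± 0.69), and the SPOP paralogue SPOPL (-1.81 ± 0.16). KBTBD7, an adaptor for the Rac activator TIAM1, changed by -1.86 ± 0.14. KLHL17, an actin-binding adaptor of neurons, went the other way, from 203 ± 15.4 to 969 ± 243 (2.22 ± 0.31). KEAP1, the adaptor that targets the oxidant-response factor NRF2, was chosen after its values were seen and changed by -0.71 ± 0.14. In B87+DMKG+Nutlin-3, KLHL21, an adaptor acting in mitosis, changed by -2.48 ± 0.11 and RHOBTB3 by -2.20 ± 0.12. In B87+DMKG+Rita, KCTD13, an adaptor for RhoA, rose by 2.00 ± 0.14 and BTBD9 changed by -1.72 ± 0.36.

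Of 41 SKP1 and F-box genes of the CUL1 ligases, 26 were lower and 6 higher in B87+DMKG, beside 30.8% and 30.2% of all rows. The median of the list was -0.52. FBXO45 changed by -1.80 ± 0.10, FBXO28 by -1.54 ± 0.13, FBXO21 by -1.46 ± 0.11 and FBXW11, which encodes a β-TrCP protein that recognises phosphorylated β-catenin and IκB, by -1.40 ± 0.10. In the triple treatments 23 were lower and 8 higher with Nutlin-3 (median -0.33), and 21 lower and 9 higher with Rita (median -0.31), beside 29.7% lower and 28.3% higher, and 30.7% lower and 29.4% higher, of all rows. Under quantile normalization these became 18 lower and 9 higher (median -0.15) and 16 lower and 10 higher (median -0.15). With equal library totals each had 28 lower and 6 higher. The medians were then -0.49 and -0.57, beside -0.13 and -0.25 for all rows. With Nutlin-3 alone, FBXW7, the tumour suppressor adaptor for cyclin E and MYC, rose by 1.31 ± 0.13, and SKP2, the adaptor for the inhibitor p27, changed by -1.01 ± 0.09.

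The list for the CUL2 and CUL5 ligases held 33 tested Elongin, VHL-box and SOCS-box genes. Of these, 17 were lower and 3 higher in B87+DMKG (median -0.33), beside 30.8% and 30.2% of all rows. WSB2 changed by -1.59 ± 0.09 and ASB7 by -1.55 ± 0.15, both SOCS-box adaptors, whereas ZSWIM8, an adaptor known for the decay of microRNAs bound to certain targets and described with CUL3 as well, went from 209 ± 27.2 to 788 ± 104 (1.90 ± 0.15). In DMKG alone VHL itself changed by -0.90 ± 0.07. For B87+DMKG+Rita, 12 were lower and 10 higher, shares of 36.4% and 30.3% near the 30.7% and 29.4% of all rows, and the median of -0.02 became 0.09 under quantile normalization and -0.28 with equal library totals.

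Of 26 DDB1 and DCAF genes of the CUL4 ligases, 15 were lower and 6 higher in B87+DMKG, beside 30.8% and 30.2% of all rows. The median of the list was -0.28. RFWD2, also called COP1, an E3 enzyme that can work through DET1, DDB1 and CUL4, went from 3027 ± 90.8 to 552 ± 136 (-2.49 ± 0.13). DCAF6 changed by -1.27 ± 0.10. In Rita alone 16 were lower and 5 higher, beside 26.3% and 25.8% of all rows, with AMBRA1, an adaptor known for cyclin D, at -1.80 ± 0.09. In B87+DMKG+Rita 17 were lower and 6 higher, beside 30.7% and 29.4% of all rows. In B87+DMKG+Nutlin-3 11 were lower and 9 higher, beside 29.7% and 28.3%. The median of -0.15 became 0.06 under quantile normalization and -0.31 with equal library totals. FBXW8, the partner of CUL7, changed by -0.30 ± 0.12 in Nutlin-3.

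**Figure D3:**
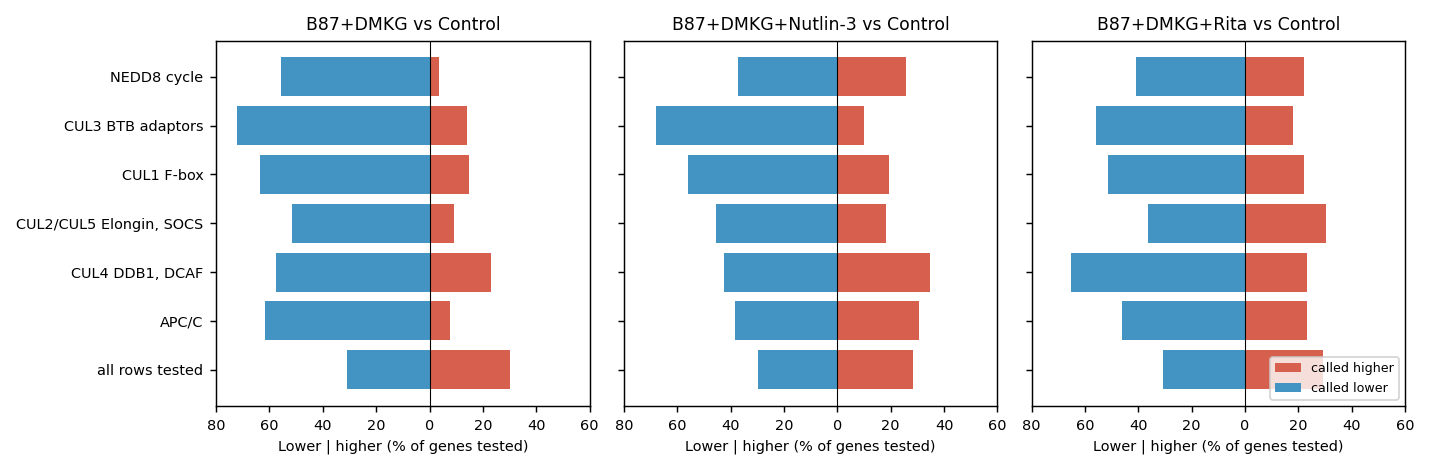
Share of tested genes called higher (right) or lower (left) in each pathway list and among all rows, for 3 treatments against Control, in percent. In B87+DMKG the BTB adaptors have 72% lower and 14% higher, beside 30.8% and 30.2% of all rows.

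Genes whose pattern over the 31 libraries was most like that of CUL3 were sought among 11147 rows with a symbol of their own and a mean of at least 50. By Pearson correlation of log2 values the closest were TUBGCP3 (0.99), USP7 (0.99), POLR2B (0.99), URI1 (0.99), ADGRA3 (0.98), SPC25 (0.98), TMEM168 (0.98) and ABCE1 (0.98). All points share their libraries and groups, so these values describe likeness only. Their changes were smaller than that of CUL3: in B87+DMKG+Nutlin-3 they lay between -2.26 (POLR2B) and -4.36 (ADGRA3), beside -5.97 for CUL3. USP7 encodes a deubiquitinase that acts on MDM2, POLR2B a core subunit of RNA polymerase II, SPC25 a kinetochore protein and ABCE1 a ribosome-recycling factor.

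By size of change, the root mean square difference from CUL3 over the 7 log2 fold changes against Control, the closest were ADGRA3 (0.75), CUL5 (0.81), UBL3 (0.92), DLG1 (0.96), ST20-AS1 (1.00), TIMM21 (1.03), FASTKD1 (1.03) and ACTR3B (1.06). ADGRA3, an adhesion G-protein-coupled receptor gene, was the single gene on both lists. Among the cullins, CUL5 had a correlation of 0.97 with CUL3 (rank 18 of 11147) and CUL1 0.95 (rank 66). CUL4A (0.84), CUL2 (0.82), CUL4B (0.45), CUL7 (0.27) and CUL9 (-0.18) were less alike. CUL7 and CUL9 correlated with each other at 0.61.

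**Figure D4:**
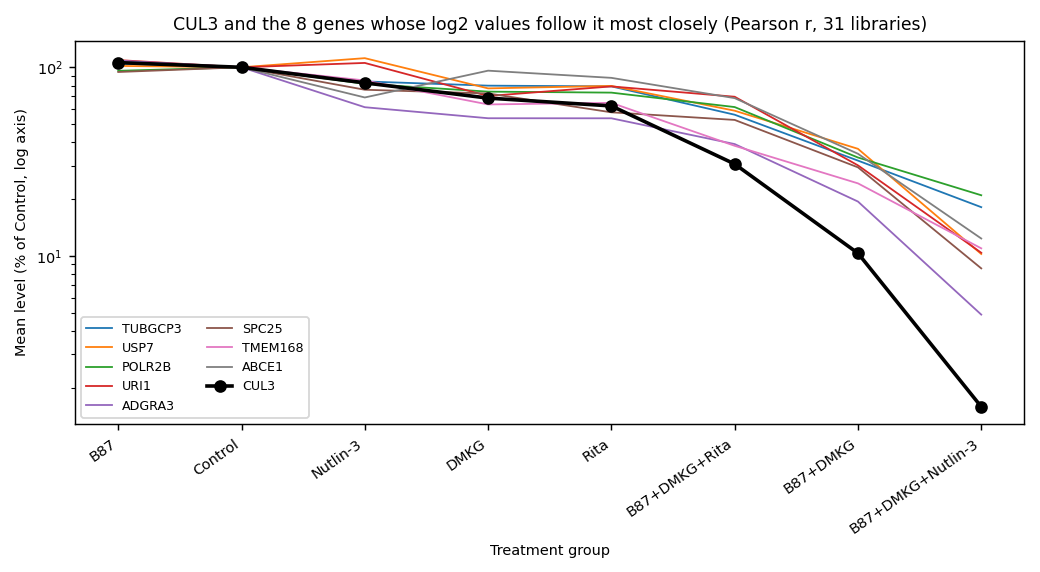
Mean level as a percent of Control (log axis) in the 8 groups for CUL3 and the 8 genes with the highest Pearson correlation to it over 31 libraries. CUL3 ends at 1.58% of Control in B87+DMKG+Nutlin-3, below all 8 others, and in every gene B87+DMKG+Nutlin-3 lies below B87+DMKG.

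The cullins differ in length of the gene, a property that was not used to choose them. On hg19, the build the file names, CUL3 runs over 115.2 kb (chromosome 2, 225334867 to 225450114), CUL1 over 103.2 kb (chromosome 7, 148395006 to 148498201) and CUL5 over 99.1 kb (chromosome 11, 107879408 to 107978484). CUL2 spans 82.1 kb (chromosome 10, 35297479 to 35379570), CUL4A 56.9 kb (chromosome 13, 113862507 to 113919399) and CUL4B 51.2 kb (chromosome X, 119658448 to 119709684). CUL9 spans 42.4 kb (chromosome 6, 43149920 to 43192325) and CUL7 16.3 kb (chromosome 6, 43005356 to 43021683). Across the 8 members, span and log2 fold change had a Spearman correlation of -0.93 in B87+DMKG and -0.95 in each triple treatment against Control, with CUL3, chosen for its low value in B87+DMKG, among them. It was 0.31 in B87, and 0.88 for Rita added to B87+DMKG, where it was -0.31 over all rows. Over all 13020 rows with a symbol of their own it was -0.08 in B87+DMKG, -0.22 in B87+DMKG+Nutlin-3 and -0.43 in B87+DMKG+Rita. These correlations run across genes measured in shared libraries and are descriptions.

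In Rita alone the relation was seen across all genes: rows of 100 kb and more had a median log2 change of -0.64, those of under 10 kb 0.29, and the correlation over all rows was -0.51. CUL3 (-0.68) and CUL1 (-0.82), both in that class, lay near its median. CUL5 (-0.87) and CUL2 (-0.98), in the class of 50 to 100 kb, lay below its middle 50%, which ran from -0.54 to 0.09 around a median of -0.22. In B87+DMKG, by contrast, rows of 100 kb and more had a median of -0.05 and a middle 50% from -0.48 to 0.38. CUL3, which was chosen for this low value, and CUL1, at -3.29 and -1.90, lay far below that range. CUL5, at -2.90, lay far below that of its own class, -0.57 to 0.30.

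**Figure D5:**
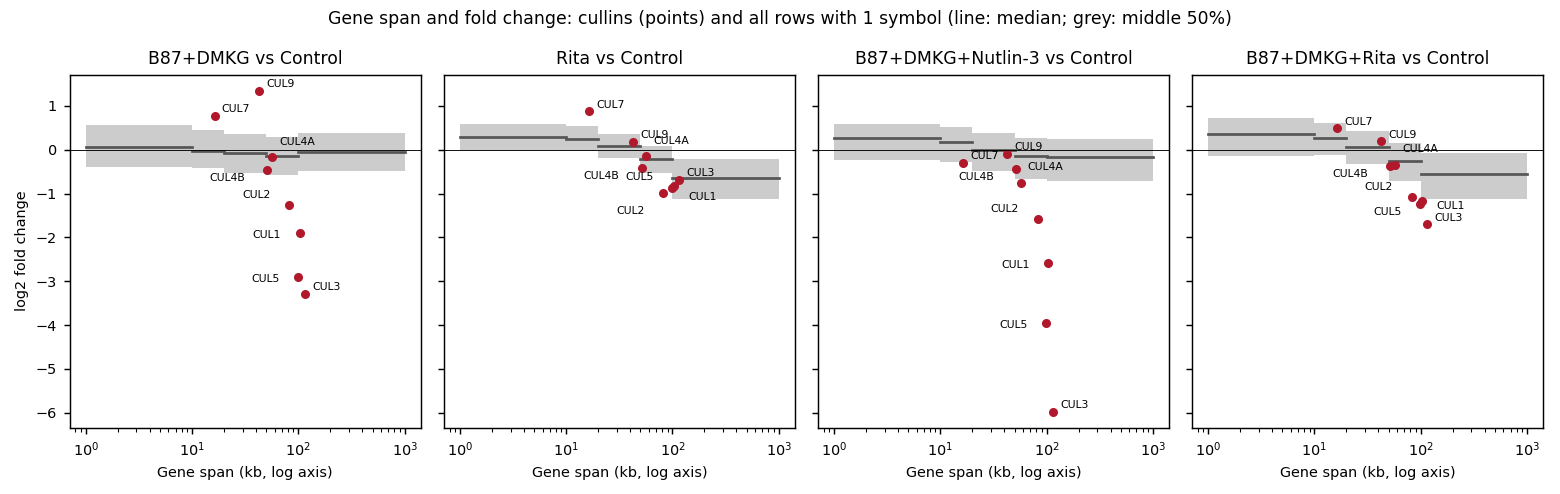
Gene span in kb (log axis) against log2 fold change in 4 treatments, with red points for the cullins, lines for the median and grey for the middle 50% of all rows with a symbol of their own in 5 span classes. The outer classes, under 10 kb and 100 kb and more, are drawn out to the edges of the axis, and CUL3 and CUL1 lie below the grey band in B87+DMKG and B87+DMKG+Nutlin-3 and within it in Rita, where CUL5 and CUL2 lie below it.

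The tested genes next to CUL3 on chromosome 2 were not lower in B87+DMKG. SERPINE2, a protease inhibitor gene 431 kb before it, rose by 0.22 ± 0.06 on the log2 scale in B87+DMKG (limma adjusted p = 0.00238) and by 0.16 ± 0.06 in B87+DMKG+Nutlin-3 (adjusted p = 0.019). DOCK10, a guanine nucleotide exchange factor gene 179.7 kb after it, rose by 0.68 ± 0.10 in B87+DMKG (limma adjusted p = 1.10e-06) and changed by 0.20 ± 0.10 in B87+DMKG+Nutlin-3 (adjusted p = 0.0975). In Rita, DOCK10 fell by 1.68 ± 0.10 (adjusted p = 2.01e-14). DOCK10 was also lower in DMKG (-0.28 ± 0.10, limma adjusted p = 0.0248), Nutlin-3 (-0.36 ± 0.11, adjusted p = 0.00951) and B87+DMKG+Rita (-1.45 ± 0.10, adjusted p = 2.78e-13). SERPINE2 rose in these groups, by 0.26 in Rita, 0.30 in DMKG, 0.19 in Nutlin-3 and 0.42 in B87+DMKG+Rita. No other row of the table overlaps CUL3.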

How the data were processed

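The deposited table holds a signal per gene and library: read counts normalized by the authors with DESeq2, per the submitters' processing notes and the file headers. Those notes name FastQC, STAR 2.4.0, Picard, SAMtools and the build mm10, whereas the file header names hg19 and the genes are human. How reads were counted, with which annotation and strand setting, is not given in the sources used here. RNA was extracted with a Qiagen column kit and made into stranded TruSeq mRNA libraries, per the labels' protocols, with no spike-in, so a change in total RNA per cell cannot be seen.

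In each library the low values were multiples of what 1 read is worth (100% of 437256 values within a tolerance of 0.1 read), which gave the reads behind each value. Because 55.8 to 59.2% of the low counts were even, a unit may be a read end, and count tests were used as alternatives only. The main test was limma 3.58.1 in R 4.3.3 with an intensity trend on log2(value + 1), which understates changes of low genes, over 16259 rows with a mean of at least 10 and all 31 libraries in 1 fit by group. Benjamini-Hochberg adjusted p-values under 0.05 over all rows were called. The fit had 23 residual and 7.14 prior degrees of freedom, and its code was tested on simulated data.

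Alternatives were pseudocounts of 0.5 and 5, no filter and a mean of 50, a replicate block, quantile normalization, equal library totals, fits of single pairs of groups, edgeR 4.0.16, DESeq2 1.42.0 and each library left out. The members and lists were chosen with earlier results of these data known. The named genes are all cullins, the up to 4 called genes with the largest change per list and comparison, any NEDD8-cycle gene, the 8 genes most like CUL3 by each measure, and the neighbours of CUL3. KEAP1 was named outside this rule, and some genes the rule names are not reported here. List genes with no row under their own symbol (NEDD8, UBE2F, RBX1, DCUN1D3, LZTR1, ASB3, DCAF8 and CDC26) or below the filter (CCDC8) were not tested. Exon lengths came from GENCODE v29 by symbol, with all annotated exons of a gene merged.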

Additional observations from a re-analysis of the deposited data

Results flagged for a closer look

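In 3 of 56 groups of 4 libraries, a library lay far from the other 3 by Dixon's test, which chance gives in about 1 in 20 groups. CUL1 in B87 library 4 had 8921 normalized read counts, beside 7615 to 7770.3 in the other B87 libraries. CUL2 in the same library had 3736, beside 2743 to 2840.3. That library had 33441414 reads, the lowest number of all 31 libraries. CUL4B in Control library 2 had 4102, beside 5083 to 5176 in the other Control libraries.

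CUL1, CUL3 and CUL5 went in opposite directions when Rita and when Nutlin-3 was added to B87+DMKG, and CUL1 and CUL5 passed the test in both. The difference between the 2 changes was 1.41 on the log2 scale for CUL1 and 2.71 for CUL5, both past the test in limma. This comparison of the triple treatments was added after the values were seen. CUL1, CUL3 and CUL5 were flagged because their Nutlin-3 triple libraries lay below, and their Rita triple libraries above, every B87+DMKG library. A difference therefore follows from the flag, and passing the test adds no support. For CUL3 the difference was 4.27, and this was not tested because CUL3 was chosen for its fall. CUL2 also differed in sign (-0.33 ± 0.10 with Nutlin-3 and 0.17 ± 0.10 with Rita), but the latter did not pass the test.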

How the results depend on the processing

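Of 1608 values of the cullins recomputed under the alternatives, 1560 kept their direction and side of the threshold or moved by less than the replicate spread. A further 26 lost their call, 12 gained a call, 10 untested CUL3 values moved (8 under another scaling and 2 without a pair of DMKG libraries), and 0 reversed. The count of called rows stayed within 1.5 times its main value in every comparison and alternative except B87 against Control. There 7 rows were called, 14 in a fit of only these groups, 29 with DESeq2 and 2 to 7 when a library was left out (2 without B87 library 4 or Control library 2, and 4 without B87 library 1, Control library 1 or Control library 3). None of the 7 tested cullins gained a call there.

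Making all library totals equal lowered the share of calls that were higher from 47.3 to 31.6% in DMKG, 47.2 to 30.5% in Nutlin-3, 49.4 to 30.9% in Rita, 48.8 to 33.8% in B87+DMKG+Nutlin-3 and 48.9 to 27.9% in B87+DMKG+Rita. It moved from 45.1 to 31.9% for Nutlin-3 added and 49.2 to 32.7% for Rita added, as the medians of all rows went from -0.05 to -0.20 and from 0.00 to -0.24. The share went from 49.5 to 48.4% in B87+DMKG and rose from 51.2 to 59.5% in B87+DMKG against DMKG. Quantile normalization raised the Nutlin-3 added share to 56%. The cause was not tested.

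Libraries share replicate numbers, but same-numbered libraries deviated together only weakly (correlations from -0.19 to 0.18 over all comparisons), so the numbers were not used as pairs. With the replicate block, 9 rows were called in B87, 6591 in DMKG, 9808 in B87+DMKG, 6229 in Nutlin-3, 8333 in Rita, 9336 in B87+DMKG+Nutlin-3 and 9705 in B87+DMKG+Rita. Among the cullins the block ended only the CUL4A call with Rita added (adjusted p = 0.0603). edgeR on whole reads called 9982 rows in B87+DMKG against Control, beside 9922 with limma. Depth limits CUL5 in B87+DMKG+Nutlin-3 most, where 57 reads were the fewest behind a value. The 8 genes most like CUL3 by correlation and by size of change shared 1 gene.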

Other observations

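The anaphase-promoting complex is built on ANAPC2, which has a cullin domain of its own and is not in the family described above. ANAPC2 mRNA did not pass the test in B87+DMKG (0.19 ± 0.16 on the log2 scale, limma adjusted p = 0.316) and fell with Nutlin-3 alone (-0.67 ± 0.17, adjusted p = 0.00269). In B87+DMKG+Nutlin-3 it rose by 0.44 ± 0.16 (limma adjusted p = 0.0197), the group in which CUL3, CUL5 and CUL1 were lowest. The values of ANAPC2 outside Nutlin-3 were chosen after they were seen. Of 13 genes of this complex, 8 were lower and 1 higher in B87+DMKG, beside 30.8% and 30.2% of all rows, with a median of -0.33. ANAPC13 changed by -1.19 ± 0.11 and ANAPC11, the RING subunit gene, by -0.79 ± 0.12. With Rita added to B87+DMKG, ANAPC11 rose by 1.01 ± 0.12 and ANAPC13 by 0.79 ± 0.11. Of the 13 genes, 6 were higher and 3 lower there (median 0.12), beside 33.1% and 34.2% of all rows. With Nutlin-3 added instead, 7 were higher and 2 lower (median 0.26), beside 26.5% and 32.3% of all rows.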
